A study of Homo sapiens with 6 samples.

Results

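Interferon response genes are described here in HaCaT cells, a spontaneously immortalised human keratinocyte line, treated with TGF-β1 with or without silymarin, a flavonolignan extract of milk thistle seed. The set was a list of 37 gene symbols, each matched to the row of that name in a table of 57281 genes, and all 37 were found. All 6 cultures received TGF-β1 at 10 ng/ml for 24 h. In 3 biological replicates it was given alone, and in the other 3 together with silymarin at 31.25 µg/ml, and poly(A) RNA was sequenced. No library from cells without TGF-β1, from cells given an interferon or from another cell line was analysed here. Levels are those of HaCaT cells given TGF-β1, with or without silymarin, and no added interferon.

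Interferons are secreted proteins, and cells release those of type I and type III on sensing viral nucleic acid. Type I and type III interferons bind receptors that activate the kinases JAK1 and TYK2, which phosphorylate STAT proteins. STAT2 and IRF9 are subunits of ISGF3, a complex that binds the interferon-stimulated response element (ISRE) in the promoters of antiviral genes. Interferon gamma acts mainly through gamma-activated sites (GAS), and IRF1 is an early gene of that arm. Keratinocytes respond to all of these interferons, and many of the genes have a low level without added interferon.

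Silymarin did not move the interferon response genes in 1 direction. Of 33 members abundant enough to be tested, 8 rose, 8 fell and 17 did not pass the threshold, which was a limma adjusted p under 0.05 over all tested genes. IRF1, HERC5, IFIT2, ISG20, IFIT3, SAMD9, IFIT5 and DTX3L rose. EPSTI1, OAS2, OAS3, IFI35, STAT2, XAF1, IFIT1 and OAS1 fell. Among all 17296 tested genes 34.2% were called, 16% higher and 18.2% lower, against 48.5% of the tested members, 24.2% each way. The median log2 fold change was -0.038 over the tested members and 0.0044 over all tested genes. The members' median changed sign when TGF-β1 replicate 2 (0.0111) or silymarin replicate 1 (0.033), 2 (0.0314) or 3 (0.0137) was left out, and with a filter of 50 normalized counts (0.0104). Changes were small, and EPSTI1 alone reached 2-fold. The counts were 4 and 5 when TGF-β1 replicate 2 was left out, and 5 and 7 when silymarin replicate 3 was. Counts over all tested genes moved as well, from 2764 higher and 3148 lower with all libraries. They were 1959 and 2319 without TGF-β1 replicate 2, and 2449 and 3047 without silymarin replicate 3.

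Tested genes had at least 10 normalized counts in at least 3 of the 6 libraries, and no member passed this filter through 1 group only. The untested members were IFI44L, MX2, BST2 and IRF9. Recovered reads per library ran from 20240542 to 30279391. Silymarin replicate 2 was the shallowest library and stood furthest from the others of its group. The SD across tested genes of its log2 deviation from the other silymarin libraries was 0.301, against 0.225 to 0.258 for the other 5 libraries measured the same way, and over the tested members it was 0.257 against 0.137 to 0.177. Without it, 8 members rose and 9 fell, while 3474 genes rose and 3709 fell over all tested genes, against 2764 and 3148 with it. Fewer cells of a kind and less RNA per cell cannot be told apart in such bulk libraries. All 8 keratinocyte markers checked were present and 7 of them fell, with KRT5 and KRT14 at log2 fold changes of -1.17 and -1.14. Summed levels of the 16 leukocyte markers were 33.6 to 34.4 normalized counts with TGF-β1 and 35.0 to 50.2 with silymarin. Of these, 5 were listed at 0 throughout, TYROBP and MS4A1 among them, PTPRC and CD3E reached at most 2.65 and 5.47 normalized counts in any library, and CD14 rose by 0.74 (adjusted p = 0.0492). CD14 was the only leukocyte marker tested. Among the untested ones, FCER1G was lower in every silymarin library than in any TGF-β1 library (means of 7.88 with TGF-β1 and 3.33 with silymarin). CD3E was higher in every silymarin library (means of 2.39 and 4.54). Of other cell type markers, the fibroblast gene COL1A1 fell by 0.83 (3386 to 1903 normalized counts). The endothelial gene CDH5 rose from 34.1 to 157 (adjusted p = 9.44e-08) and the melanocyte gene MITF rose by 0.75 (146 to 247). VWF and PMEL did not pass. The fibroblast markers COL1A2, COL3A1, DCN, LUM and PDGFRA, and KDR, MLANA, DCT and TYR, were too low to be tested. COL1A2 averaged 4.37 normalized counts with TGF-β1 and 0.29 with silymarin, and DCT 0.64 and 5.47. DCN and TYR were listed at 0 throughout. The part of these marker changes in the results on the members was not tested.

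**Figure D1:**
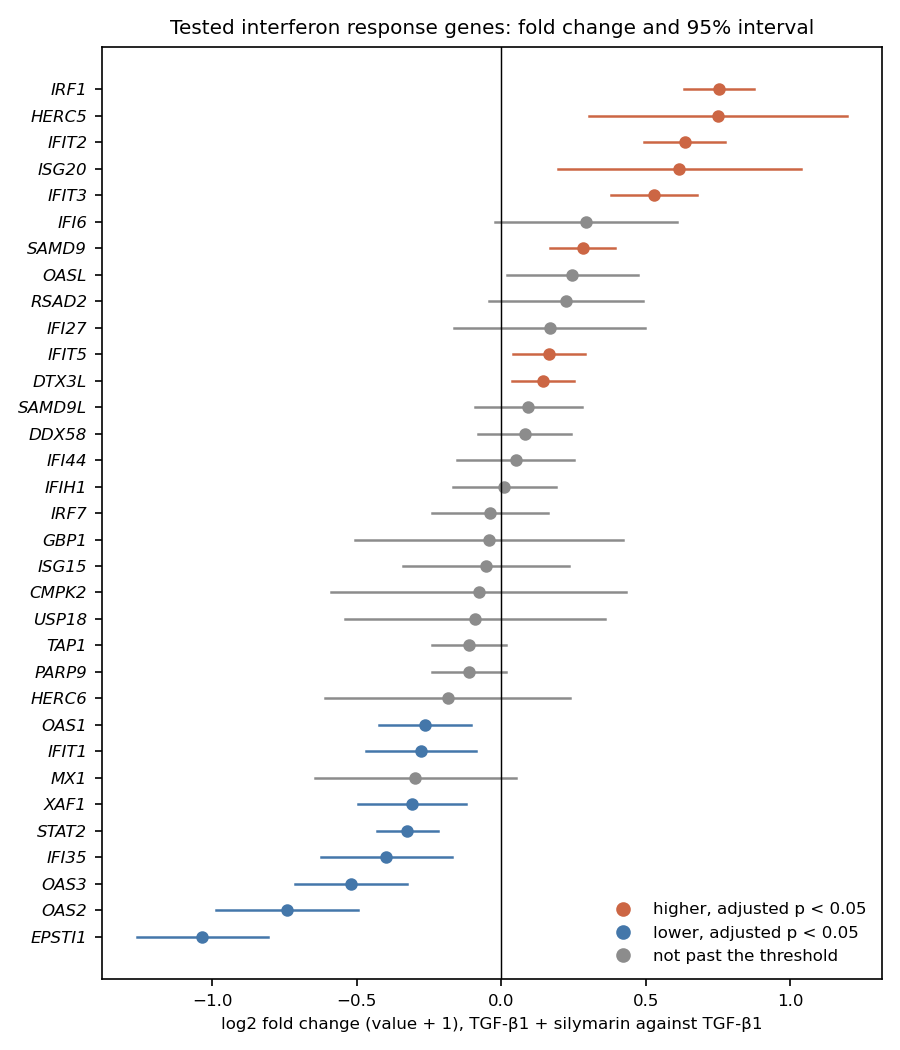
Log2 fold change, on the log2(value + 1) scale, of the 33 tested members (points) with its 95% interval from the limma fit (lines), TGF-β1 plus silymarin against TGF-β1, 3 libraries per group. The 8 members called higher lie between 0.15 and 0.75, the 8 called lower between -0.26 and -1.04, and the 17 grey members did not pass the threshold.

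The promoters of the members show that genes with the same response element moved in opposite directions. RefSeq start sites on GRCh38.p14 gave a window of 300 bases, from 250 before to 50 after the start, for 30 of the 37 members. IFIT2, MX2, OAS2, OASL, IRF7, DDX58 and USP18 had no window. The ISRE core was searched on both strands as GAAA, any 2 bases and GAAA again (TTTC, any 2 bases and TTTC on the other strand), with overlapping matches allowed. The GAS core was searched as TTCNNNGAA, which reads the same on both strands. The ISRE core was in 19 of the 30 member windows (63.3%) and in 3.57% of all 35116 windows in the RefSeq table. The GAS core was in 7 member windows (23.3%) and in 7.66% of all windows. By response, the ISRE core was in 6 of 7 windows of members that rose and 3 of 7 of those that fell. It was in 8 of 13 of those not past the threshold and 2 of 3 of the untested members. The search missed other spacings, so a window without a match may still hold an ISRE-like site. GAAA, 1 base and GAAA stands in the windows of OAS1, XAF1 and IFI35, which fell, and of RSAD2, which did not pass. The GAS core was in 1 of 7 windows of members that rose, 3 of 7 of those that fell, 1 of 13 and 2 of 3 of the others. IRF1 held the 1 match among members that rose. These members are known interferon targets, so the motif share describes the list, and a match is not evidence of binding.

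The windows printed here, each the 200 bases before the start, belong to called members. Of these, IFIT1 and IFIT3 share a family and moved apart. IFIT1 (chr10:89392423-89392622, plus strand) fell, and IFIT3 (chr10:89327797-89327996, plus strand) rose. OAS3 (chr12:112938274-112938473, plus strand) and EPSTI1 (chr13:42992242-42992441, minus strand) fell. In these 4 the capitals mark the ISRE core. IRF1 (chr5:132490774-132490973, minus strand) rose, and in its window the capitals mark the GAS core. Sequences run 5′ to 3′ on the strand of the gene.
IFIT1: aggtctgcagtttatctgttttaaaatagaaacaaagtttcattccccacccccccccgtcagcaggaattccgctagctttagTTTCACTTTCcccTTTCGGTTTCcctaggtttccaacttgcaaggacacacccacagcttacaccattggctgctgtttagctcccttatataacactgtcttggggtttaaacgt
IFIT3: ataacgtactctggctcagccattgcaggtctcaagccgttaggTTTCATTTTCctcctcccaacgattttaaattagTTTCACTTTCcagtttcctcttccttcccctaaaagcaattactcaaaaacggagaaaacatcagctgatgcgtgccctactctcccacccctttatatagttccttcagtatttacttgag
OAS3: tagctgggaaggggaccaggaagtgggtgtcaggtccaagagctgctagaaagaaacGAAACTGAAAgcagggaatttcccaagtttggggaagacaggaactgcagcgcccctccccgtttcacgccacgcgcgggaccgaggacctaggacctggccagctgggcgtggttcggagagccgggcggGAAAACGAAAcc
EPSTI1: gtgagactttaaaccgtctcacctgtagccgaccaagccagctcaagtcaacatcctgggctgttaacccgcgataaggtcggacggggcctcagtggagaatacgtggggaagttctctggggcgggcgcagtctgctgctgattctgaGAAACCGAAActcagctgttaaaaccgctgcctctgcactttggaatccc
IRF1: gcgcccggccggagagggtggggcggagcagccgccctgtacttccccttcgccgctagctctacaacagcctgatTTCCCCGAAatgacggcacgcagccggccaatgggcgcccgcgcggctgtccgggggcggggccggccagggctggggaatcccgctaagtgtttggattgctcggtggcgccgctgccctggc
The first base of each match, counted back from the start, was at -116 and -103 in IFIT1, at -156 and -122 in IFIT3, at -143 and -12 in OAS3, at -50 in EPSTI1 and at -124 in IRF1. IFIT1 and IFIT3 both hold TTTCACTTTC, so this shared 10-base match lay upstream of a gene that fell and of one that rose.

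The IFIT genes encode tetratricopeptide repeat proteins that bind viral RNA or act in complexes with each other. The 4 members lie on the plus strand of chromosome 10 (GRCh38, GENCODE 29), in the order IFIT2 (89283694 to 89309276), IFIT3 (89327894 to 89340971), IFIT1 (89392546 to 89406486) and IFIT5 (89414586 to 89421001). IFIT2 had 679, 699.6 and 758 normalized counts in TGF-β1 replicates 1 to 3, and 1099.6, 1055 and 1163 with silymarin. IFIT3 had 714, 671 and 728 against 983, 965 and 1108. For both genes every silymarin library was above every TGF-β1 library. IFIT2 rose by 0.64 (SE 0.065, adjusted p = 6.33e-06) and IFIT3 by 0.53 (SE 0.069, adjusted p = 5.22e-05). IFIT1, which recognises viral RNA caps that lack ribose methylation, went the other way. It had 372, 337 and 387 normalized counts with TGF-β1, and 307, 275 and 322 with silymarin, so that the groups did not overlap. Its log2 fold change was -0.28 (SE 0.088, adjusted p = 0.0261). Leaving out TGF-β1 replicate 1 or 3 ended the call (adjusted p = 0.088 and 0.121), as did edgeR and DESeq2 on the reads of 5 libraries (adjusted p = 0.113 and 0.238). Wherever these tools are given, TGF-β1 replicate 3 was left out as well, so tool and library changed together. IFIT5 had 943, 977 and 933 against 1028, 1111 and 1060.2 normalized counts. Its rise of 0.16 (SE 0.058, adjusted p = 0.0427) did not overlap between groups, but leaving out any 1 library other than silymarin replicate 2 ended the call (adjusted p = 0.0551 to 0.153). So did keeping every gene in the fit (adjusted p = 0.0599), edgeR (adjusted p = 0.143) and DESeq2 (adjusted p = 0.264).

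The opposite changes within the IFIT cluster can be read as ratios inside each library, which do not depend on how libraries were scaled. Per kb of exon, IFIT2 stood at 2.05, 2.33 and 2.20 times the level of IFIT1 with TGF-β1, and at 4.02, 4.31 and 4.06 times with silymarin. The IFIT3 to IFIT1 ratio went from 3.37 ± 0.097 to 5.91 ± 0.285 (SD, n = 3 per group). That of IFIT5 to IFIT1 went from 3.00 ± 0.29 to 4.09 ± 0.48. None of these ratios overlapped between the groups. Since IFIT1 fell and the other 3 genes rose without overlap, this separation was fixed in advance. The gene pairs were chosen after their values were seen, and 3 libraries against 3 cannot give an exact permutation p below 0.10, so no test is given. IFIT2 shares 1.58% of its exon bases with LIPA, a lysosomal lipase gene on the opposite strand, which rose by 0.42 (SE 0.048) from 8478 to 11308 normalized counts. The kit was stranded per the labels, but how the counting used strand is not known here, and the part of this overlap in the IFIT2 value was not tested.

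The OAS genes encode sensors of double-stranded RNA that make 2′-5′ oligoadenylates, a second messenger of antiviral defence. OAS1 (112906777 to 112933222), OAS3 (112938352 to 112973249) and OAS2 (112978395 to 113011723) are neighbours on the plus strand of chromosome 12, and all 3 fell. OAS2 had 283, 292 and 279 normalized counts with TGF-β1, and 181, 140.2 and 193 with silymarin. OAS3 had 804, 754 and 788 against 577, 463 and 604. OAS1 had 532, 545 and 496 against 428, 417 and 464. Every silymarin library was below every TGF-β1 library for each of the 3 genes, and silymarin replicate 2 was the lowest throughout. The log2 fold changes were -0.74 for OAS2 (SE 0.11, adjusted p = 0.000213), -0.52 for OAS3 (SE 0.090, adjusted p = 0.000535) and -0.26 for OAS1 (SE 0.074, adjusted p = 0.0132). Leaving out TGF-β1 replicate 1 or 2 ended the OAS1 call (adjusted p = 0.0557 and 0.0715).

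OASL, an OAS-like protein without synthetase activity that enhances RIG-I signalling, lies apart from the cluster on chromosome 12 (121019111 to 121039242, minus strand). It had 240.4, 234 and 229 normalized counts with TGF-β1, and 309.6, 234 and 296 with silymarin, so silymarin replicate 2 sat within the TGF-β1 range. Its log2 fold change of 0.25 (95% interval 0.020 to 0.47) did not pass (adjusted p = 0.0885). Without silymarin replicate 2 it was 0.37 (adjusted p = 0.00137). The OASL to OAS2 ratio per kb was 1.51, 1.43 and 1.46 with TGF-β1, and 3.06, 2.98 and 2.73 with silymarin. Here silymarin replicate 2 lay between the other silymarin libraries. The OASL to OAS3 ratio was 0.681 to 0.728 with TGF-β1 and 1.149 to 1.26 with silymarin. The OASL to OAS1 ratio went from 0.629 ± 0.023 to 0.902 ± 0.113 (SD, n = 3), with no overlap for either. The OASL pairs were chosen after their values were seen. OAS1, OAS2 and OAS3 had each fallen without overlap, so the separation of these ratios is no test of OASL.

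**Figure D2:**
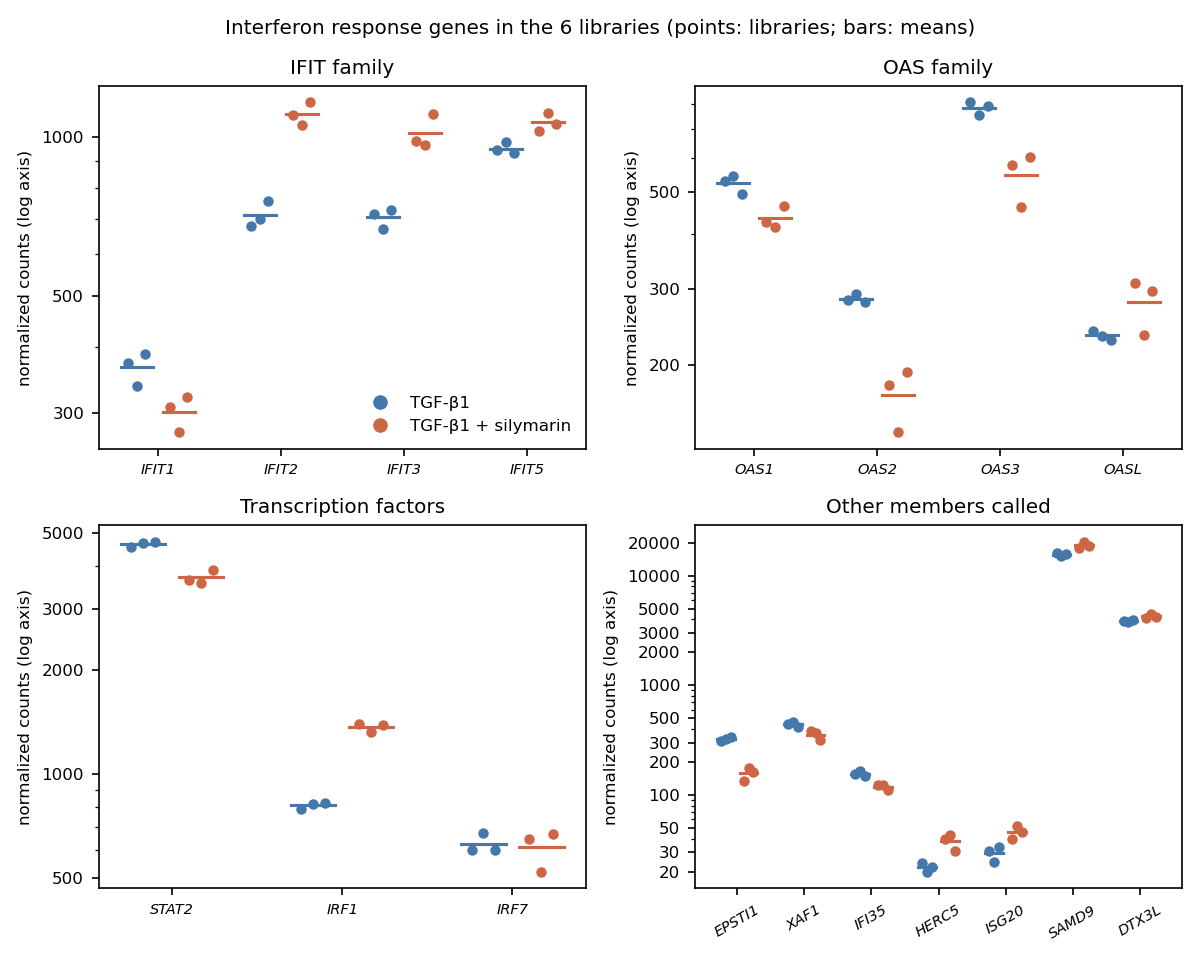
Normalized counts (log axes, each panel with its own range) of the IFIT family, the OAS family, the tested transcription factors and the other members called, in the 3 TGF-β1 libraries (blue) and the 3 libraries with silymarin (orange). Points are libraries and bars are group means: IFIT2, IFIT3 and IRF1 lie higher with silymarin, whereas IFIT1, OAS1, OAS2, OAS3, STAT2 and EPSTI1 lie lower.

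Among the transcription factors, STAT2 and IRF1 moved apart. STAT2, the ISGF3 subunit with the main transactivation domain, had 4558, 4684 and 4701 normalized counts with TGF-β1, and 3656, 3581 and 3898 with silymarin. It fell by 0.33 on the log2 scale (SE 0.049, adjusted p = 0.000187). IRF1 had 791, 820.1 and 821 against 1393, 1324 and 1385 normalized counts. Its rise of 0.75 (SE 0.056, adjusted p = 2.98e-07), was 1.69-fold. Both genes separated the groups fully and kept their calls under all 17 alternative settings. Within libraries, the IRF1 to STAT2 ratio per kb was 0.136 to 0.137 with TGF-β1 and 0.278 to 0.299 with silymarin. This pair was chosen after its values were seen, and its separation follows from that of the genes. IRF1 shares 22% of its exon bases with C5orf56 on the opposite strand, which rose by 0.50 (adjusted p = 0.00278), with means of 140.4 ± 3.96 and 199.8 ± 23.2 normalized counts (SD, n = 3 per group). The part of C5orf56 reads in the IRF1 value was not tested.

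IRF7, the factor that amplifies type I interferon production, had 600.2, 676 and 603 normalized counts with TGF-β1, and 649, 519.9 and 669.9 with silymarin. The groups overlapped, and the 95% interval of its log2 fold change was -0.24 to 0.16. IRF9, the DNA-binding subunit of ISGF3, was listed at 0 in all 6 libraries. Its span on chromosome 14 (24161053 to 24166565) lies wholly within a second protein-coding gene on the same strand (24151218 to 24167402), which covers 48.4% of its exon bases and is named RNF31 in the table, with 54.8 ± 3.98 and 52.0 ± 12.5 normalized counts. No level of IRF9 is given.

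**Figure D3:**
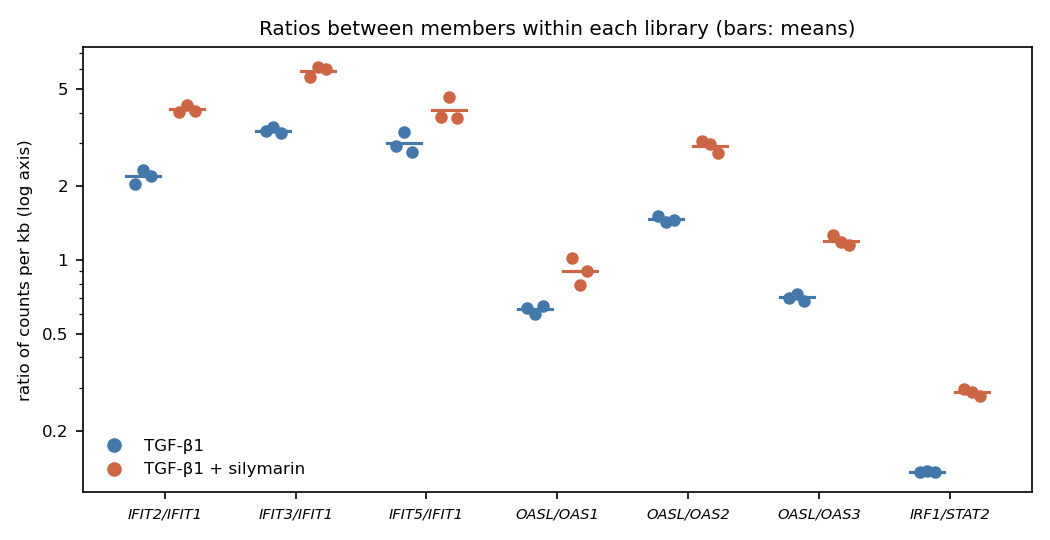
Ratio of normalized counts per kb of exon (log axis) between pairs of members within each library, TGF-β1 in blue and TGF-β1 plus silymarin in orange, with group means as bars. The groups do not overlap for any of the 7 pairs, and the IRF1 to STAT2 ratio goes from a mean of 0.137 to 0.289. Pairs were chosen after their values were seen. In the IFIT and IRF1 pairs both genes had separated the groups, in opposite directions, so separation of their ratios was fixed in advance. In the OASL pairs the second gene had separated the groups, while OASL itself overlapped.

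EPSTI1, which encodes an interferon-induced protein of epithelial-stromal interaction, had the largest change of any tested member. It had 312, 323 and 336 normalized counts with TGF-β1, and 136, 177 and 162 with silymarin. The log2 fold change was -1.04 (SE 0.10, adjusted p = 5.22e-06), or 2.05-fold lower. XAF1, a pro-apoptotic antagonist of XIAP, had 445, 461 and 419 against 383, 372 and 316 normalized counts, and fell by 0.31 (SE 0.087, adjusted p = 0.0137). IFI35, a partner of NMI, had 156, 167 and 149.7 against 124, 122 and 112, and fell by 0.40 (SE 0.11, adjusted p = 0.0101). All 3 genes separated the groups. Leaving out TGF-β1 replicate 2 ended both the XAF1 and the IFI35 call (adjusted p = 0.0697 and 0.0556). The XAF1 call also ended when silymarin replicate 3 was left out (adjusted p = 0.0554), and that of IFI35 with DESeq2 (adjusted p = 0.0726). XAF1 shares 38.3% of its exon bases with PRAL, an unlisted gene on the opposite strand.

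BST2 (tetherin), which holds budding virions at the cell surface, was too low to be tested. It had 7.07, 5.44 and 7.08 normalized counts with TGF-β1, and 2.19, 1.27 and 0.87 with silymarin. These values did not overlap, and with no low-value filter its log2 fold change was -1.65 (SE 0.44, adjusted p = 0.0115). IFI44L and MX2 stayed below 4 normalized counts in every library.

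SAMD9, a cytoplasmic restriction factor of poxviruses, was the most abundant member per length. It had 16074, 15131 and 15683 normalized counts with TGF-β1, and 18130.0, 20367 and 18569 with silymarin, a rise of 0.28 (SE 0.052, adjusted p = 0.000968). Per kb of exon its mean level was 2280 with TGF-β1 and 2775 with silymarin, followed with TGF-β1 by STAT2 at 761 and DTX3L at 661, and with silymarin by DTX3L at 731 and STAT2 at 608. SAMD9 made up 42.2% to 50.1% of the summed counts of all 37 members. That sum was 35858 to 36734 with TGF-β1 and 38702 to 40646 with silymarin, whereas without SAMD9 it was 20660.1 to 20843 and 20279 to 21221. Without SAMD9, the summed levels of the groups overlapped. Its paralogue SAMD9L, next to it on chromosome 7, stood at 42.4 and 45.3 counts per kb, with a 95% interval of -0.09 to 0.28 for its log2 fold change.

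HERC5, the ligase that attaches ISG15 to proteins, had 23.9, 19.9 and 22.3 normalized counts with TGF-β1, and 39.4, 43.3 and 31.2 with silymarin. It rose by 0.75 (SE 0.21, adjusted p = 0.0126). Its neighbour HERC6 did not pass, with a 95% interval of -0.61 to 0.24. ISG20, an RNA exonuclease, had 30.9, 24.5 and 33.4 against 39.4, 52.2 and 45.9 normalized counts and rose by 0.62 (SE 0.19, adjusted p = 0.0255). Both genes were low but did not overlap between groups. The HERC5 call ended when TGF-β1 replicate 2 was left out and with DESeq2 (adjusted p = 0.05 and 0.14). For ISG20 it ended when TGF-β1 replicate 2 or either of silymarin replicates 2 and 3 was left out (adjusted p = 0.0567 to 0.109), with every gene kept in the fit (adjusted p = 0.0581) and with DESeq2 (adjusted p = 0.128).

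DTX3L and PARP9 encode partners in a ubiquitin ligase and ADP-ribosyltransferase complex and start from opposite strands of 1 region on chromosome 3. DTX3L had 3894, 3774 and 3969 normalized counts with TGF-β1, and 4134, 4492 and 4249 with silymarin. PARP9 had 1053, 1071 and 1008 against 937, 1012 and 951, and here the groups overlapped. DTX3L rose by 0.15 (SE 0.050, adjusted p = 0.0371), while PARP9 had a log2 fold change of -0.11 (95% interval -0.24 to 0.02, adjusted p = 0.166). Leaving out any TGF-β1 library or silymarin replicate 3 ended the DTX3L call (adjusted p = 0.0569 to 0.16), as did keeping every gene in the fit (adjusted p = 0.0595), edgeR (adjusted p = 0.0731) and DESeq2 (adjusted p = 0.108). PARP9 passed when silymarin replicate 2 was left out (log2 fold change -0.15, adjusted p = 0.0217). The transcripts overlap over 3.7% of the exon bases of DTX3L, and reads may be shared.

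Several genes often used as markers of an interferon response did not pass the threshold. ISG15, the ubiquitin-like modifier, had 273, 327 and 303 normalized counts with TGF-β1, and 319, 224 and 338 with silymarin, with a 95% interval of -0.34 to 0.23. MX1, a dynamin-like GTPase that blocks influenza virus, had 65.4, 65.2 and 50.6 against 52.5, 45.9 and 47.6, with an interval of -0.65 to 0.05. The RNA helicase sensors DDX58 (RIG-I) and IFIH1 (MDA5) had intervals of -0.08 to 0.24 and -0.17 to 0.19. RSAD2 (viperin) and its neighbour CMPK2 had intervals of -0.04 to 0.49 and -0.59 to 0.43. IFI6, IFI27 and IFI44 had log2 fold changes of 0.29, 0.17 and 0.05. For IFI6, the silymarin libraries, at 64.6, 63.7 and 69.2 normalized counts, were all above the TGF-β1 libraries, at 48.6, 58.9 and 53.6, without passing the test (adjusted p = 0.143). USP18, which removes ISG15 and dampens the receptor, and the guanylate-binding protein gene GBP1 had 23.0 to 29.9 and 28.4 to 48.4 normalized counts and wide intervals, of -0.54 to 0.36 and -0.51 to 0.42. TAP1, the peptide transporter of antigen presentation, had 2154, 2203 and 2219 against 2105, 1861 and 2133 normalized counts. Its groups did not overlap, yet its log2 fold change of -0.11 did not pass (adjusted p = 0.168). Including IFI6 and TAP1, all silymarin libraries lay above all TGF-β1 libraries for 9 of the 33 tested members and below them for 9 of the 33. Of all tested genes, 23.1% lay above and 24.1% below (47.1% in either direction), so such separation was common over the whole table.

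Upstream of these genes, IFNGR1 rose, IL10RB fell and the other 4 receptor chains tested did not pass. The interferon ligand list held 21 genes in the table. Of these, 20 were listed at 0 in all libraries, IFNB1, IFNG and IFNL1 among them, and IFNK, an interferon of keratinocytes, had 5.4 to 10.1 normalized counts with TGF-β1 and 3.3 to 11.5 with silymarin. In the list of receptors and JAK-STAT signalling genes, 4 of 21 tested genes rose and 5 fell (19% and 23.8%, against 16% and 18.2% of all tested genes). The type I receptor chains IFNAR1 and IFNAR2 had 95% intervals of -0.02 to 0.22 and -0.16 to 0.29 for their log2 fold changes. IFNLR1, the type III receptor chain, had one of -0.23 to 0.10, and IL10RB, which pairs with it, fell by 0.26 (adjusted p = 0.00372). IFNGR1 rose by 0.36, from 1683 ± 46.7 to 2169 ± 180.2 normalized counts (adjusted p = 0.000553). IFNGR2 had an interval of -0.12 to 0.16. The kinases JAK1, JAK2 and TYK2 had log2 fold changes of 0.06, -0.16 and -0.06 and STAT3 of -0.09, none past the threshold.

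The called negative regulators of cytokine signalling in that list also moved in both directions. PIAS3, an inhibitor of STAT3, fell by 0.90 (adjusted p = 1.03e-07), with 2548 ± 50.4 normalized counts under TGF-β1 and 1365 ± 99.6 with silymarin (SD, n = 3). The suppressor genes of cytokine signalling split: CISH and SOCS3 fell by 1.11 and 0.41, and SOCS1 rose by 0.62 (adjusted p = 0.0306), from 28.5 ± 3.23 to 44.6 ± 9.02 normalized counts. SOCS1 lay outside the rule for named genes and was chosen after its value was seen. The STAT phosphatase gene PTPN2 rose by 0.31. The number that rose was 2 when TGF-β1 replicate 2 or 3 or silymarin replicate 1 was left out, and with edgeR and DESeq2. Of 24 tested nucleic acid sensing genes, 3 rose and 5 fell, so that 33.3% were called, near the 34.2% of all tested genes. TMEM173, which encodes STING, the adaptor of cytosolic DNA sensing, fell by 0.79 (adjusted p = 6.16e-06), from 454 ± 22.3 to 262.0 ± 17.4 normalized counts. IKBKE, MYD88 and IRF3 fell by 0.45, 0.25 and 0.26, and TRIM25, the ligase that activates RIG-I, rose by 0.40 and TRAF3 by 0.21. The IRF3 call ended when TGF-β1 replicate 2 or 3 was left out (adjusted p = 0.0964 and 0.0681), and that of TRAF3 when any 1 library other than silymarin replicate 2 was (adjusted p = 0.065 to 0.0813). Both also ended with edgeR (adjusted p = 0.0627 and 0.0552) and DESeq2 (adjusted p = 0.0593 and 0.111). In the sensing list 1 gene rose when any TGF-β1 library or silymarin replicate 1 was left out, 3 fell when TGF-β1 replicate 2 or 3 was, and 8 fell when silymarin replicate 3 was. With edgeR and DESeq2, 1 rose and 3 fell. Over all tested genes, 2764 rose and 3148 fell in the main fit. Of these genes 2112, 1959 and 2000 rose without TGF-β1 replicates 1, 2 and 3 in turn, and 2196 without silymarin replicate 1. Without TGF-β1 replicate 2 or 3, 2319 and 2334 fell, and without silymarin replicate 3, 3047. EdgeR gave 2111 higher and 2536 lower over all tested genes, and DESeq2 1620 and 2089.

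**Figure D4:**
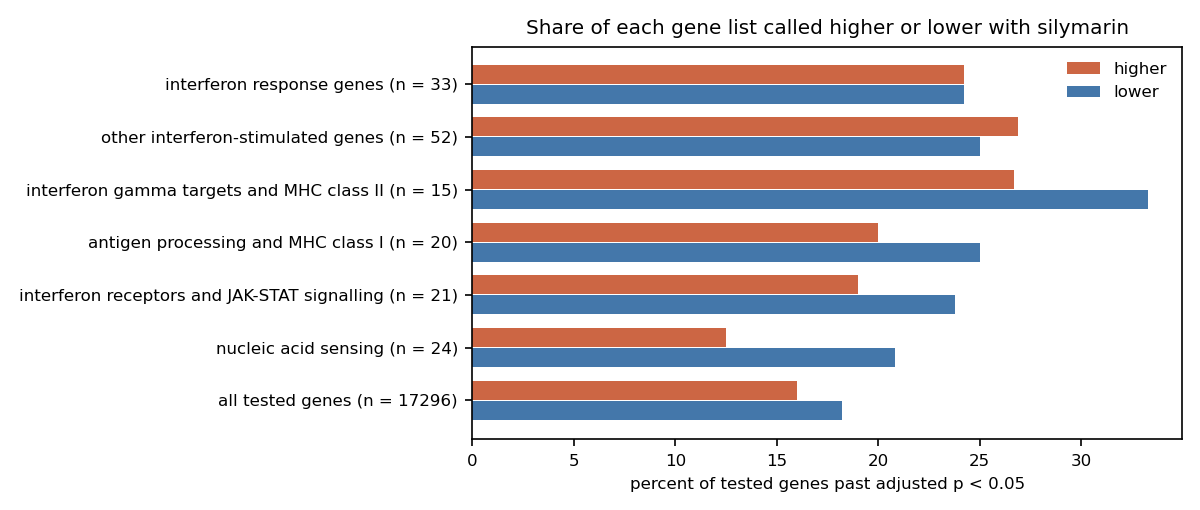
Percent of tested genes called higher (orange) and lower (blue) with silymarin at a limma adjusted p under 0.05, for the interferon response genes, 5 further lists and all tested genes, with the number tested beside each. The interferon response genes stand at 24.2% in each direction, against 16% higher and 18.2% lower among all tested genes.

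Other interferon-stimulated genes were divided in the same way, with 14 of 52 tested genes higher and 13 lower (26.9% and 25%, against 16% and 18.2% of all tested genes) and a median log2 fold change of -0.04. TRIM22, a restriction factor of retroviruses, fell by 0.96 (adjusted p = 5.8e-07), with means of 788 ± 30.8 and 405 ± 36.7 normalized counts, and IFITM2, which blocks viral entry, fell by 0.58. APOL6 rose by 0.63 and the helicase-like gene DDX60L by 0.48. TRIM25 is on this list too. Leaving out a library gave 8 genes higher for TGF-β1 replicate 2, 7 for TGF-β1 replicate 3 and 8 for silymarin replicate 3, and edgeR and DESeq2 gave 8 and 6. Over all tested genes the same settings, in that order, gave 1959, 2000, 2449, 2111 and 1620 higher, against 2764 in the main fit. Genes of the interferon gamma arm and MHC class II rose in 4 and fell in 5 of 15 tested cases (26.7% and 33.3%). Its guanylate-binding protein genes split, with GBP4 up by 1.03 (120.4 ± 11.5 to 248 ± 36.8 normalized counts) GBP2 down from 398 ± 28.6 to 199 ± 15.1 and GBP6 down by 0.54. WARS, a tryptophanyl-tRNA synthetase gene that interferon gamma induces, rose by 0.78. IL15 and the cathepsin gene CTSS fell by 0.69 and 1.31.

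Antigen processing and MHC class I genes rose in 4 and fell in 5 of 20 tested cases (20% and 25%). Of all tested genes, 16% rose and 18.2% fell, so these shares lie near those of the whole table. B2M, the MHC class I light chain, rose by 0.23 (adjusted p = 0.00468), from 17070 ± 477 to 20104 ± 1450 normalized counts. HLA-B rose by 0.29 and the trimming peptidase gene ERAP2 by 0.32. HLA-F had a log2 fold change of -0.31, a call that ended when TGF-β1 replicate 3 was left out (adjusted p = 0.0553) and with edgeR and DESeq2 (adjusted p = 0.054 and 0.0614). The chaperone genes CALR and PDIA3 of the peptide-loading complex fell by 0.58 and 0.23. Reads of HLA genes may be split between near-identical copies. With silymarin replicate 2 left out, 9 genes of this list rose, and 3474 over all tested genes, against 2764 with all libraries. The number that fell was 3 with TGF-β1 replicate 1 or 2 left out or with equal library totals, and 2 with TGF-β1 replicate 3 left out, in the limma fit and in edgeR and DESeq2 alike. Over all tested genes, 2437, 2319 and 2334 fell without TGF-β1 replicates 1, 2 and 3 in turn. Equal library totals gave 2918, edgeR 2536 and DESeq2 2089, against 3148 in the main fit.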

How the data were processed

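RNA-seq libraries of 6 HaCaT cultures were analysed. Per the labels' protocols, mirVana extraction came before a stranded Illumina mRNA kit. TopHat2 2.1.1, Subread 1.5.2 with featureCounts, DESeq2, cutadapt 1.15 and bcl2fastq 2.18.12 appear in the submitters' processing notes. Neither build nor annotation nor strand setting is given in the sources used here. The table that the authors deposited has values that are a signal in size-factor normalized read counts: 100% of values in each column were whole multiples of 1 step, within 1e-06 reads. This held for TGF-β1 replicate 3 as well, whose step was 1.01136. Its reads were all the same not used as counts, so the edgeR and DESeq2 fits lacked that library.

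In R 4.3.3, limma 3.58.1 with a trended prior was fitted to log2(value + 1) of all 6 libraries, the group being its one term. P-values were adjusted by Benjamini-Hochberg over the 17296 genes that reached 10 normalized counts in 3 or more libraries. Fold changes understate those of low genes, and fixed scaling hides changes in total RNA. The error behind each p-value and interval combines the gene's own spread over 3 replicates per group with a trend fitted over all tested genes. It is therefore not the replicate spread of that gene alone. The fit was tested on simulated data. Alternatives were TMM, upper quartile and equal-total scaling, other filters, pseudocounts and thresholds, a replicate block, leaving out each library, and edgeR 4.0.16 and DESeq2 1.42.0 on reads recovered from 5 libraries.

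The members and lists were chosen with earlier results of these data known, and some listed genes are not reported here. All members are accounted for. From each other list, up to 6 called genes with the smallest p were named, with fixed receptors, kinases and factors. Ratio pairs were chosen after values were seen. GENCODE 29 positions (GRCh38), matched by identifier for 37 of 37 members, may differ from the authors' annotation.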

Additional observations from a re-analysis of the deposited data

How the results depend on the processing

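No tested member reversed direction with a call under any of the 17 alternatives. Of 16 called members, 8 kept their call under all of them (IFIT2, IFIT3, OAS2, OAS3, STAT2, IRF1, SAMD9 and EPSTI1), and of 17 members not called, 15 were called under none. An adjusted p under 0.01 left 4 members higher and 4 lower, and 1667 genes higher and 2194 lower in all. With no low-value filter 5 members rose, and 2548 genes in all. DESeq2 on reads of 5 libraries gave 4 members higher, and 1620 higher and 2089 lower over all genes, where edgeR gave 2111 and 2536. Leaving out 1 library gave 4 to 8 members higher and 5 to 9 lower. Over all tested genes it gave 1959 to 3474 higher and 2319 to 3709 lower, so these counts did not move in the members alone. The median log2 fold change of tested members was -0.018 with equal library totals, 0.0104 with at least 50 normalized counts in 3 libraries, -0.0121 with edgeR, -0.0224 with DESeq2 and -0.0458 to 0.033 without 1 library. The cause of these shifts was not tested. With the replicate block, 6 members rose and 8 fell (IFIT5 and DTX3L no longer passed, adjusted p = 0.0776 and 0.0765), and 2630 genes rose and 3048 fell in all. Deviations of same-numbered libraries correlated at -0.039, 0.042 and 0.023, and not every library correlated best with its own number, so the numbers were not taken as pairs. The 95% intervals were wide for low members such as GBP1 (-0.51 to 0.42), CMPK2 (-0.59 to 0.43) and USP18 (-0.54 to 0.36).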

Other observations

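Called genes outside the list that averaged 100 normalized counts or more were ranked by how closely their log2 values followed the median standardised profile of the tested members over the 6 libraries. The 5 most alike were EEF1B2P3, CTC-308K20.3, KCNB2, AP4S1 and IFFO2, with Pearson correlations of 0.715, 0.691, 0.686, 0.679 and 0.672. These describe the libraries only, since the members moved in both directions and share their libraries and scaling with these genes.

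Some chromosome neighbours moved apart and others moved together. IFIT2 and IFIT3 rose next to IFIT1, which fell, and OAS1, OAS3 and OAS2 fell together. Within libraries, the SAMD9 to SAMD9L ratio per kb went from 53.8 ± 1.88 to 61.3 ± 2.16 and the DTX3L to PARP9 ratio from 5.67 ± 0.32 to 6.76 ± 0.041 (SD, n = 3 per group), without overlap between groups. The HERC5 to HERC6 ratio went from 0.565 ± 0.155 to 1.10 ± 0.27, also without overlap. These pairs were chosen after their values were seen. SAMD9, DTX3L and HERC5 had each risen without overlap, so the separation of these ratios is no test of SAMD9L, PARP9 or HERC6.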
